A study of Mus musculus with 12 samples.

Results

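The genes described here are 50 cell cycle genes, 24 of DNA replication and the G1/S step (the S-phase members) and 26 of mitosis (the mitotic members). They were followed across 12 single-colour arrays of the mouse embryonic fibroblast line C3H/10T1/2, and were chosen by symbol, through the RefSeq accession of each array probe. Of the 50, 49 were measured among 12298 genes tested, 23 S-phase and all 26 mitotic members. Gins1, a subunit of the replicative helicase complex, matched no probe. The cells expressed an RNA hairpin, either against Six4 (shSix4) or as a control (shLuc). Six4 is a homeodomain transcription factor of muscle development. Both lines received a pBABE retrovirus for Flag- and myc-tagged MyoD or with the empty pBABE vector, grown in 10% fetal bovine serum, and moved 24 h after infection into differentiation medium with 2% horse serum for 24 h. The 4 groups were therefore shSix4 with MyoD, shLuc with MyoD, shSix4 with empty vector and shLuc with empty vector, with 3 arrays each. MyoD is a muscle master regulator that turns fibroblasts towards muscle and draws them out of the cell cycle, and the MyoD groups received it from a virus. Signal from the viral MyoD and from the cells' own gene was not told apart. Nothing in the labels tells whether the 3 replicates of a group came from different cultures. The p-values therefore rest on the spread among these arrays, which may be technical.

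In a dividing cell, E2F factors turn on the genes of DNA replication late in G1. The genes of mitosis follow later, through MYB, FOXM1 and the loss of the DREAM repressor complex, which sits at CHR elements (cell cycle genes homology region) near their starts. When cells leave the cycle, DREAM holds both sets down. In low serum, C3H/10T1/2 fibroblasts slow their division, and muscle cells must stop dividing to differentiate. In bulk RNA, fewer cycling cells and less RNA per cycling cell cannot be told apart.

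The promoters were searched for letters of these elements because the members move together on the arrays. RefSeq's promoter table (build GRCm38.p6, 250 bases before to 50 after each start) held 40 of the 50 members, 20 of each set, and 27025 genes in all. Both strands were searched for TTTGAA (the CHR core), CCAAT (the letters bound by NF-Y) and an E2F set of TTTGGCGC, TTTCCCGC, TTTCGCGC or TTTGCCGC. TTTGAA stood in 13 of 20 mitotic and 3 of 20 S-phase promoters, against 20.2% of all genes. All 13 and all 3 of these also held CCAAT, and both words stood together in 8.97% of all genes. CCAAT alone was common, in 16 of 20 mitotic and 13 of 20 S-phase promoters, against 41.1% of all genes. The E2F words went the other way, with 8 of 20 S-phase promoters and 1 of 20 mitotic ones, that of Cdk1, against 2.6% of all genes. In 1 member promoter a word of one kind overlapped a word of another. A match of letters is a description of the window and not a bound site. Of the genes followed array by array below, 3 of each set are shown with the 200 bases before the start, 5′ to 3′ on the gene's strand, in lower case with matched words in capitals.
Mcm5, chr8:75109309-75109508, plus strand: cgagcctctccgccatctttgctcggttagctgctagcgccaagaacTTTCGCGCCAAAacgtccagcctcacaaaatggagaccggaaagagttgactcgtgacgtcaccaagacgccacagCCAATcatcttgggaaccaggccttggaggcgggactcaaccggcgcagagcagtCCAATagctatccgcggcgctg
Mcm6, chr1:128359706-128359905, minus strand: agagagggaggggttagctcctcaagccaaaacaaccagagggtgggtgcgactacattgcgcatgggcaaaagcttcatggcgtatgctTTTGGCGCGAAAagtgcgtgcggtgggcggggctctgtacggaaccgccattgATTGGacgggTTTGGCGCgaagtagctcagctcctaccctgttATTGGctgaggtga
Cdc6, chr11:98907951-98908150, plus strand: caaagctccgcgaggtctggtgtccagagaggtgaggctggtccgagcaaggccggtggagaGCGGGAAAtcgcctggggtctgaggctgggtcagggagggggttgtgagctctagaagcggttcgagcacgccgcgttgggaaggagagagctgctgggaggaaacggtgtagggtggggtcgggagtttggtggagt
Cdk1, chr10:69352913-69353112, minus strand: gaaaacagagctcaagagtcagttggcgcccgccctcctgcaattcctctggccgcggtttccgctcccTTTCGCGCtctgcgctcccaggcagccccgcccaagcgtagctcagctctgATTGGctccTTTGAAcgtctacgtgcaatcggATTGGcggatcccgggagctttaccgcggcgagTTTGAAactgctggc
Top2a, chr11:99024190-99024389, minus strand: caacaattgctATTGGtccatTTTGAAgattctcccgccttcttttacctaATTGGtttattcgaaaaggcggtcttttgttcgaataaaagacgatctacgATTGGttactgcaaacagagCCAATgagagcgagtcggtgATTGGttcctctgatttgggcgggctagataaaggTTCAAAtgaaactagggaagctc
Mki67, chr7:135716380-135716579, minus strand: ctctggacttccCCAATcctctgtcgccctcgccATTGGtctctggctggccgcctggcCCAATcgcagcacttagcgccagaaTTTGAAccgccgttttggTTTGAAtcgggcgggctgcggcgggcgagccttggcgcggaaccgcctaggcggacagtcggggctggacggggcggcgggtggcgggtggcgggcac
In Mcm5 and Mcm6, which encode parts of the replicative helicase, an E2F word on one strand overlaps another on the opposite strand, and in Cdc6, the helicase loader, a single one lies 138 bases before the start. Top2a, the topoisomerase that untangles chromosomes, and Mki67, the gene of the Ki-67 proliferation antigen, hold TTTGAA with several CCAAT words and no E2F word. Cdk1, the mitotic kinase, holds words of all 3 kinds. The promoters shown do not stand for all the genes followed below. Pcna, Rrm2, Tk1, Ccne1 and E2f1 hold no E2F word, and Ccnb1 and Birc5 hold no TTTGAA.

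The levels below are log2 of the processed Cy3 signal minus the array's own 75th percentile, so that a step of 1 is a doubling and a negative level lies under that percentile. Levels are compared between arrays for 1 gene, never between genes. Replicates 1, 2 and 3 of every group lay on slides 1, 2 and 3, so that replicate number and slide are the same thing here, and slide 1 was scanned on another day than slides 2 and 3. The arrays had 22317 to 27447 of 41174 probes well above background and no saturated spot, and the lowest counts were those of the shSix4 arrays of slide 1, 22602 with MyoD and 22317 with empty vector. Of the 49 measured members, 48 were well above background on all 12 arrays. Ccne2 was so on 10, failing on 2 of 3 arrays of shSix4 with empty vector. Bub1b has no value on shLuc with MyoD replicate 2, whose spot carried an outlier mark, and its fits used 11 arrays. The hairpin's own target, Six4, was the lower one in shSix4 cells for each slide, at -2.97, -2.86 and -1.47 with MyoD in shSix4 cells, against -1.38, -1.58 and -0.78 in shLuc cells. For empty vector cells it was -4.03, -2.94 and -2.76 in shSix4 cells, against -2.55, -2.82 and -1.58 in shLuc cells. Neither difference passed the test in limma (adjusted p = 0.552 with MyoD and 0.999 with empty vector), and with replicate number as a block the one with MyoD did (adjusted p = 0.0385). Myod1 was at -2.11, -0.79 and -0.15 in shSix4 with MyoD, against 0.14, -0.11 and 1.31 in shLuc with MyoD (limma, adjusted p = 0.844). Myog, the muscle factor that MyoD turns on, was at 7.22, 6.45 and 6.90 in shSix4 with MyoD. In shLuc with MyoD it was at 8.18, 7.99 and 7.88, and the line difference did not pass (limma, adjusted p = 0.189). Myog was not well above background on the 6 other arrays. Its rise is therefore a bound, at least 4812-fold in shSix4 and 14070-fold in shLuc cells. The limma fit of its measured levels, those near background included, gave adjusted p = 1.92e-09 and 1.35e-09. All 8 fibroblast markers were measured above background on every array, with summed levels on the linear scale, in units of the 75th percentile, of 929 to 1348 in shSix4 with MyoD, 944 to 1280 in shLuc with MyoD, 1063 to 1371 in shSix4 with empty vector and 1050 to 1846 in shLuc with empty vector. Of 12 leukocyte, endothelial and epithelial markers 5 were measured, with sums of at most 0.269 for any list and array, and no probe of Ptprc, Pecam1 or Epcam passed the background filter.

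The first pattern in the members was the slide, in both lines for the S-phase set and mainly in shSix4 cells for the mitotic set. On slide 1 both sets lay above the gene means in all 4 groups. In shLuc with MyoD, however, the mitotic median was no higher on slide 1 than on slides 2 and 3. Against each gene's mean over the 12 arrays, the median S-phase member stood at 0.92, 0.58, 0.77 and 0.84 on slide 1 in shSix4 with MyoD, shLuc with MyoD, shSix4 with empty vector and shLuc with empty vector. The median mitotic member stood at 0.74, 0.48, 0.80 and 0.74 in the same groups. On slides 2 and 3 the S-phase median was -0.63 and -0.48 in shSix4 with MyoD, against 0.29 and 0.26 in shLuc with MyoD. With empty vector it was -1.19 and -1.10 in shSix4 cells, against -0.09 and -0.34 in shLuc cells. The mitotic median on slides 2 and 3 was -0.89 and -0.85 in shSix4 with MyoD, against 0.53 and 0.51 in shLuc with MyoD. With empty vector it was -1.34 and -1.48 in shSix4 cells, against 0.59 and 0.27 in shLuc cells. So the 4 low arrays of both sets were shSix4 replicates 2 and 3, and the shSix4 arrays of slide 1 stood with the shLuc arrays. Over all genes the same median moved only between -0.07 and 0.11.

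**Figure D1:**
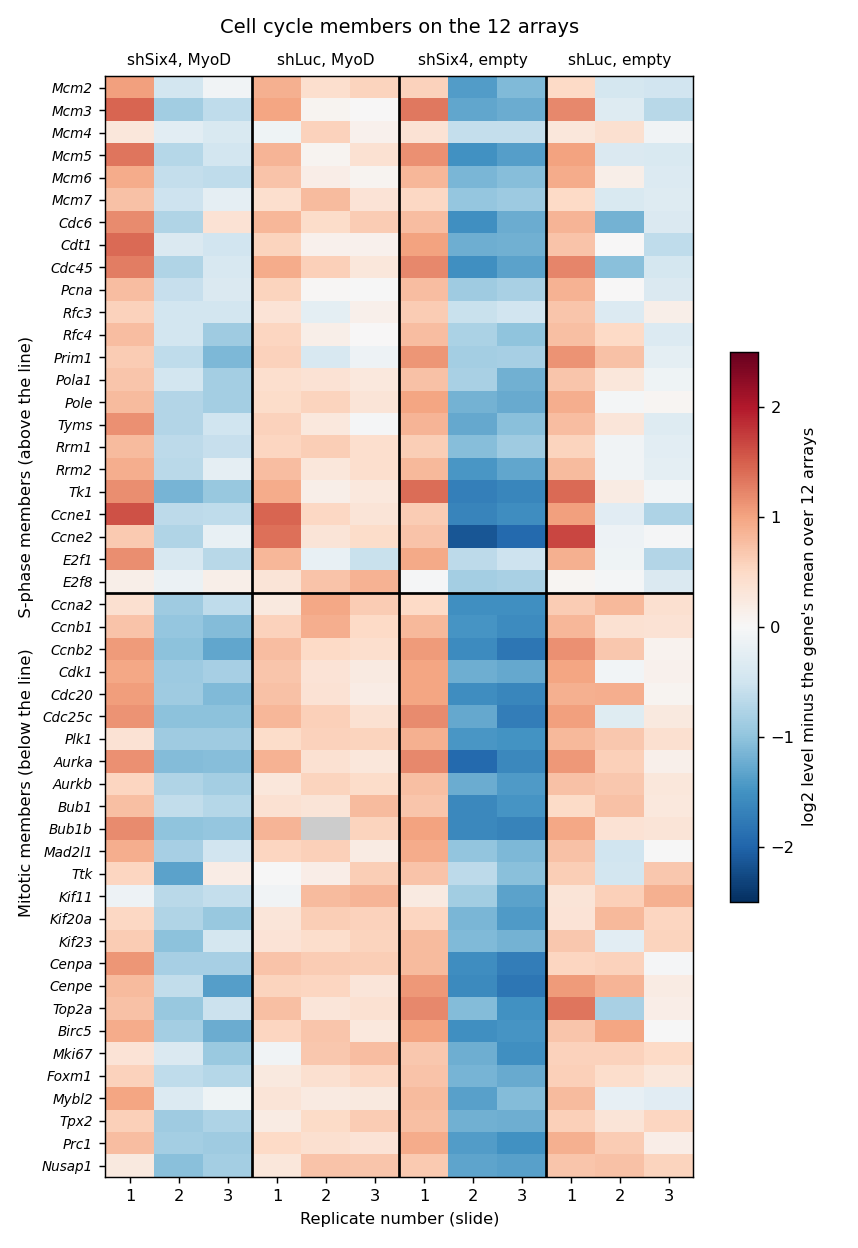
Heat map of the 49 measured members (rows, S-phase members above the line, mitotic ones below) on the 12 arrays (columns, 3 replicates a group), coloured by the log2 level minus the gene's own mean over the 12 arrays, with a missing value in grey. Columns 1 of all 4 groups are red through nearly all rows, and columns 2 and 3 of both shSix4 groups are blue in nearly all rows.

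**Figure D2:**
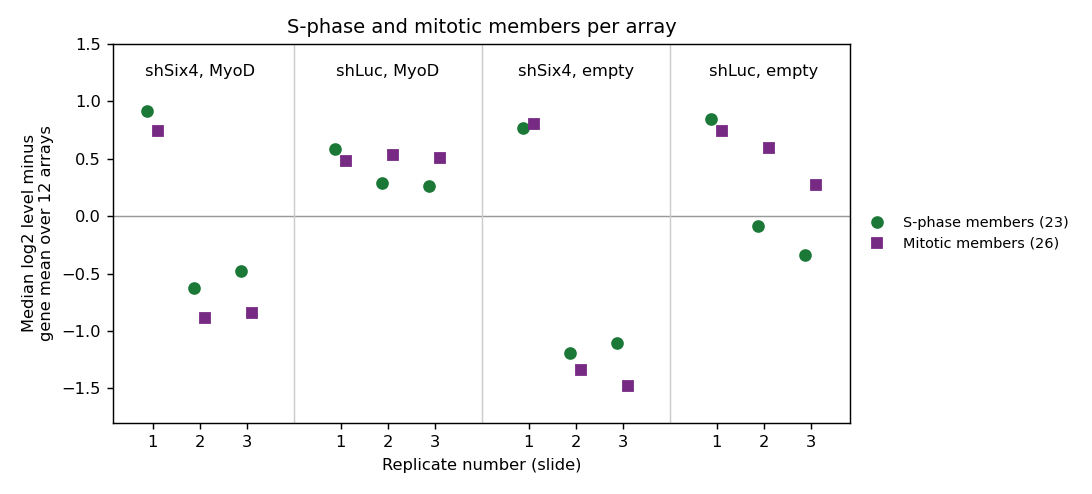
Median over the S-phase members (circles) and over the mitotic members (squares) of the log2 level minus the gene mean, for each array by group and replicate number. In shLuc cells the mitotic medians lie between 0.27 and 0.74 on all 6 arrays, while in shSix4 cells they lie at 0.74 and 0.80 for replicate 1 and between -1.48 and -0.85 for replicates 2 and 3.

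Mcm5, Mcm6 and Cdc6, of replication licensing and the helicase, show the slide step in both lines, whereas Mcm4 was highest on slide 2 in both shLuc groups. Mcm5 was at 4.11, 2.06 and 2.32 on slides 1, 2 and 3 in shSix4 with MyoD, against 3.63, 2.83 and 3.16 in shLuc with MyoD. In cells with empty vector Mcm5 was at 3.92, 1.25 and 1.40 in shSix4 cells, against 3.77, 2.41 and 2.38 in shLuc cells. Slide 1 was thus the highest in every group, and on slides 2 and 3 both shSix4 groups lay below their shLuc partners. Mcm6, of the same ring, was at 6.08, 4.55 and 4.51 in shSix4 with MyoD, against 5.86, 5.30 and 5.21 in shLuc with MyoD, and at 5.98, 4.0 and 4.07 in shSix4 with empty vector, against 6.08, 5.29 and 4.81 in shLuc with empty vector. Cdc6, which loads the helicase on origins, was at -0.21, -2.13 and -1.02 in shSix4 with MyoD, against -0.56, -0.92 and -0.74 in shLuc with MyoD, and at -0.62, -2.90 and -2.62 in shSix4 with empty vector, against -0.53, -2.55 and -1.74 in shLuc with empty vector. Slide 1 was again the highest in each group, and with empty vector the shLuc array of slide 2 was nearly as low as its shSix4 partner.

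The sliding clamp and the genes of nucleotide supply behaved alike. Pcna, the clamp of the replicative polymerases, was at 5.10, 3.74 and 3.95 in shSix4 with MyoD, against 4.88, 4.35 and 4.32 in shLuc with MyoD, and at 5.09, 3.43 and 3.52 in shSix4 with empty vector, against 5.19, 4.33 and 3.96 in shLuc with empty vector. Rrm2, the regulated subunit of ribonucleotide reductase, was at 2.40, 0.80 and 1.25 in shSix4 with MyoD, against 2.26, 1.77 and 1.90 in shLuc with MyoD, and at 2.29, 0.02 and 0.18 in shSix4 with empty vector, against 2.27, 1.39 and 1.25 in shLuc with empty vector. Tk1, the thymidine kinase of the salvage route, was at 3.55, 1.23 and 1.45 in shSix4 with MyoD, against 3.33, 2.53 and 2.65 in shLuc with MyoD, and at 3.78, 0.69 and 0.76 in shSix4 with empty vector, against 3.82, 2.59 and 2.32 in shLuc with empty vector. For all 3 genes the lines were close on slide 1, and on slides 2 and 3 the shSix4 array was the lower of each pair.

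Among the G1/S regulators, E2f1 and the cyclin E genes differed from each other. E2f1, an activating E2F factor, was at 2.01, 0.45 and 0.15 in shSix4 with MyoD, against 1.66, 0.66 and 0.29 in shLuc with MyoD, and at 1.80, 0.20 and 0.32 in shSix4 with empty vector, against 1.73, 0.74 and 0.11 in shLuc with empty vector. On slides 2 and 3 all 4 groups lay far below slide 1 and overlapped each other. Ccne1, a cyclin E that drives Cdk2 at the start of S phase, was at 4.24, 2.00 and 2.02 in shSix4 with MyoD, against 4.12, 3.17 and 2.97 in shLuc with MyoD, and at 3.29, 1.01 and 1.11 in shSix4 with empty vector, against 3.69, 2.37 and 1.88 in shLuc with empty vector. Ccne2, the other cyclin E, was at -2.41, -3.82 and -3.25 in shSix4 with MyoD, against -1.68, -2.75 and -2.61 in shLuc with MyoD, and at -2.36, -5.19 and -5.00 in shSix4 with empty vector, against -1.38, -3.20 and -3.09 in shLuc with empty vector. Ccne2 was the S-phase member with the largest SD over the 12 arrays, 1.16, and was lower in shSix4 cells on all 3 slides with either vector.

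The mitotic genes were lower on slides 2 and 3 than on slide 1 in shSix4 cells, while in shLuc cells the difference was smaller at the median and its direction varied by gene. Ccnb1, the cyclin that drives mitotic entry, was at 1.80, 0.12 and 0.02 in shSix4 with MyoD, against 1.67, 2.01 and 1.60 in shLuc with MyoD. In cells with empty vector Ccnb1 was at 1.90, -0.38 and -0.47 in shSix4 cells, against 1.92, 1.48 and 1.44 in shLuc cells. The 4 shSix4 arrays of slides 2 and 3 lay below all 8 others, by more than 1 log2 unit. Ccnb2, the second B-type cyclin, was at 5.20, 3.10 and 2.82 in shSix4 with MyoD, against 4.89, 4.62 and 4.56 in shLuc with MyoD, and at 5.19, 2.55 and 2.31 in shSix4 with empty vector, against 5.28, 4.80 and 4.21 in shLuc with empty vector. Cdk1, their kinase partner, was at 3.68, 1.81 and 1.88 in shSix4 with MyoD, against 3.40, 3.06 and 2.95 in shLuc with MyoD, and at 3.70, 1.49 and 1.45 in shSix4 with empty vector, against 3.71, 2.65 and 2.82 in shLuc with empty vector. Cdk1 and Ccnb2 were also lower on slides 2 and 3 than on slide 1 in both shLuc groups.

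The mitotic kinases followed the B-type cyclins. Plk1, a kinase of mitotic entry and spindle assembly, was at 4.07, 2.81 and 2.81 in shSix4 with MyoD, against 4.17, 4.28 and 4.28 in shLuc with MyoD, and at 4.61, 2.25 and 2.23 in shSix4 with empty vector, against 4.53, 4.38 and 4.12 in shLuc with empty vector. Aurka, the spindle pole kinase and the mitotic member with the largest SD (1.13), was at 5.11, 2.89 and 2.91 in shSix4 with MyoD, against 4.83, 4.35 and 4.24 in shLuc with MyoD, and at 5.17, 2.03 and 2.35 in shSix4 with empty vector, against 5.04, 4.57 and 4.10 in shLuc with empty vector. Aurkb, the kinase of the chromosomal passenger complex, was at 1.61, 0.33 and 0.23 in shSix4 with MyoD, against 1.37, 1.64 and 1.55 in shLuc with MyoD, and at 1.83, -0.16 and -0.33 in shSix4 with empty vector, against 1.83, 1.75 and 1.38 in shLuc with empty vector. Bub1b, of the spindle checkpoint, was at 1.60, -0.57 and -0.54 in shSix4 with MyoD, against 1.27 and 0.99 on slides 1 and 3 in shLuc with MyoD, and at 1.43, -1.18 and -1.24 in shSix4 with empty vector, against 1.40, 0.80 and 0.75 in shLuc with empty vector. For each of these 4 genes the shSix4 arrays of slides 2 and 3 lay below all the others, and the shSix4 arrays of slide 1 lay among the shLuc ones or above them, save Plk1 with MyoD, which lay just below.

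Birc5, Top2a and Mki67 of the chromosome genes, and Foxm1, were also lower on slides 2 and 3 in shSix4 cells. Birc5, survivin of the passenger complex, was at 6.19, 4.42 and 4.03 in shSix4 with MyoD, against 5.81, 5.95 and 5.52 in shLuc with MyoD, and at 6.28, 3.74 and 3.79 in shSix4 with empty vector, against 5.95, 6.24 and 5.25 in shLuc with empty vector. Top2a was at 1.42, -0.27 and 0.16 in shSix4 with MyoD, against 1.43, 0.99 and 1.07 in shLuc with MyoD, and at 1.88, -0.40 and -0.82 in shSix4 with empty vector, against 2.03, -0.12 and 0.86 in shLuc with empty vector. Its shLuc replicate 2 with empty vector lay among the low shSix4 arrays. Mki67 was at 4.01, 3.30 and 2.73 in shSix4 with MyoD, against 3.58, 4.34 and 4.45 in shLuc with MyoD, and at 4.35, 2.46 and 2.14 in shSix4 with empty vector, against 4.25, 4.24 and 4.16 in shLuc with empty vector. Foxm1, the transcription factor of the mitotic programme, was at 1.73, 0.51 and 0.44 in shSix4 with MyoD, against 1.41, 1.56 and 1.67 in shLuc with MyoD, and at 1.87, -0.02 and -0.11 in shSix4 with empty vector, against 1.76, 1.59 and 1.44 in shLuc with empty vector.

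**Figure D3:**
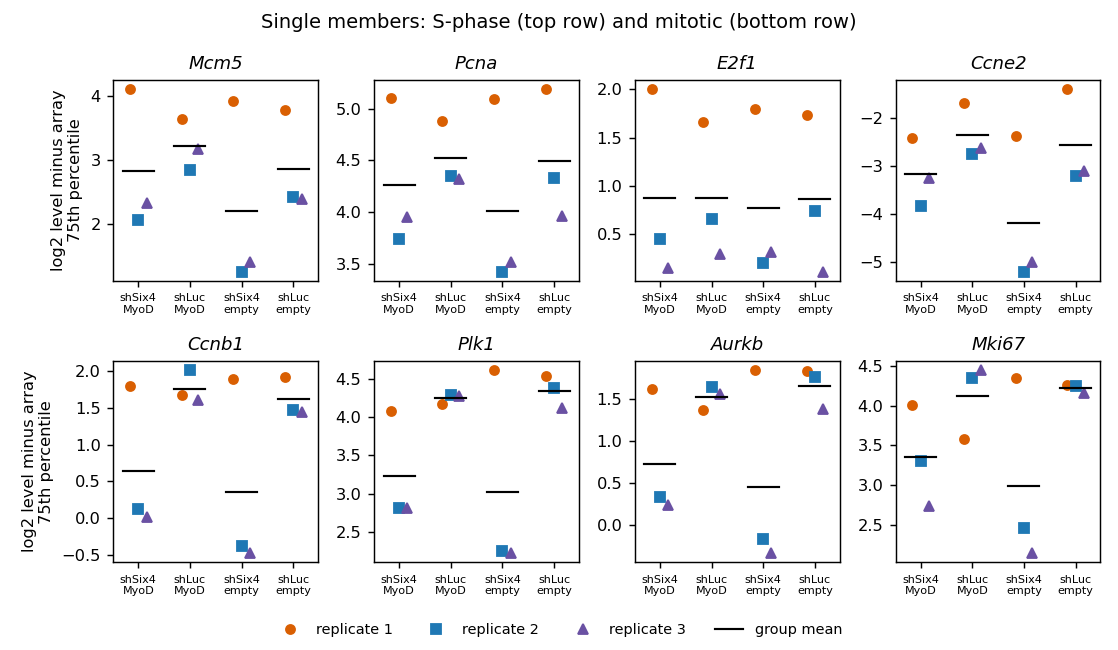
Log2 level minus the array's 75th percentile of 4 S-phase members (top) and 4 mitotic members (bottom) on each array, with the replicate number by colour and shape and the group mean as a bar. E2f1 and Pcna are highest on slide 1 in all 4 groups, while Ccnb1, Plk1 and Aurkb are low on slides 2 and 3 in the shSix4 groups and not in the shLuc groups.

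The test of replicate number over all 4 groups (an F-test in limma with group and replicate number as terms) put numbers on the slide step. It called 36 of 49 members (73.5%), against 56.6% of all genes, so most genes of the array moved with the slide. In this fit, which pools the 4 groups, all 36 were highest for replicate 1. That did not hold within every group, as Birc5 (adjusted p = 0.0447 in this F-test) was highest on slide 2 in both shLuc groups. The S-phase set had 21 of 23 called (91.3%). The mitotic set had 15 of 26 (57.7%), which is near the 56.6% of all genes. E2f1 was 1.29 ± 0.14 (SE) lower in replicate 2 and 1.58 ± 0.14 lower in replicate 3 than in replicate 1 (adjusted p = 0.000148, the lowest of the members). Ccne1 was 1.70 ± 0.22 and 1.84 ± 0.22 lower (adjusted p = 0.000328), and Mcm3, of the helicase ring, 1.84 ± 0.26 and 1.88 ± 0.26 lower (0.000543). The S-phase members not called were Mcm4 (adjusted p = 0.247) and E2f8, an E2F repressor (0.644). The mitotic ones not called were Ccna2, Plk1, Aurkb, Bub1, Ttk, Kif11, Kif20a, Mki67, Foxm1, Tpx2 and Nusap1, with adjusted p from 0.0743 for Plk1 to 0.925 for Kif11. Left out of the fit, shSix4 with MyoD replicate 1 took the count to 21 of 49. Between replicates 2 and 3 alone 0 of 49 members passed (6 at an unadjusted p under 0.05), with 1 gene called of 12298 and 2254 at an unadjusted p under 0.05.

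The same step was then read in each line. In replicate 2 relative to replicate 1 the median mitotic member differed by -1.63 in shSix4 with MyoD, against 0.09 in shLuc with MyoD, and by -2.24 in shSix4 with empty vector, against -0.23 in shLuc with empty vector. In replicate 3 relative to replicate 1 the values were -1.42 in shSix4 with MyoD, against -0.07 in shLuc with MyoD, and -2.23 in shSix4 with empty vector, against -0.53 in shLuc with empty vector. In both shSix4 groups all 26 mitotic and all 23 S-phase members were below replicate 1 in replicates 2 and 3. The median S-phase member was below replicate 1 in both lines, by -1.52 in replicate 2 and -1.57 in replicate 3 in shSix4 with MyoD, against -0.47 and -0.47 in shLuc with MyoD. With empty vector it differed by -1.98 and -1.92 in shSix4 cells, against -0.88 and -1.21 in shLuc cells. The difference in step between the lines (line by replicate number, an F-test in limma) called 0 of 49 members and 0% of all genes at the adjusted threshold. At an unadjusted p under 0.05 it held for 38 of 49 members (77.6%), against 12.2% of all genes, for 23 of 26 mitotic and 15 of 23 S-phase members. Kif20a, a kinesin of the midzone, had the lowest adjusted p of the members, 0.0692. Birc5 and Cenpa, the centromeric histone H3, followed at 0.114 each. With another background correction (normexp) the same test called 33 of 49 members, 23 of them mitotic, but also 52.7% of all genes, and one array's median over all genes was then -0.30 from the mean of the 12. So the threshold was reached or missed with the background correction.

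Genes of other lists differed by slide too, in both directions. Of 7 early serum response genes 5 were called for replicate number, where 56.6% of all genes were. Egr1, an immediate early transcription factor, was at 4.32, 3.74 and 3.78 in shSix4 with MyoD, against 4.52, 2.88 and 3.59 in shLuc with MyoD, and at 3.75, 2.87 and 2.36 in shSix4 with empty vector, against 4.30, 2.08 and 2.01 in shLuc with empty vector. Ier2, another immediate early gene, was at 3.03, 2.25 and 1.77 in shSix4 with MyoD, against 3.41, 1.48 and 1.34 in shLuc with MyoD, and at 3.12, 2.22 and 1.49 in shSix4 with empty vector, against 3.55, 1.44 and 0.80 in shLuc with empty vector. Myc, a growth transcription factor of the same list, went the other way and was lowest on slide 1 in every group, at 0.83, 1.24 and 1.61 in shSix4 with MyoD, against 0.10, 0.68 and 0.93 in shLuc with MyoD. With empty vector Myc was at 0.66, 0.81 and 1.19 in shSix4 cells, against -0.03, 0.62 and 0.94 in shLuc cells. All 5 measured G1 cyclins and kinases of a list of 6 were also called. Cdk6, a D-cyclin partner, was between -2.66 and -1.97 on slide 1 and between -4.79 and -3.84 on slides 2 and 3. Cdk2, the partner of cyclin E, was instead lowest on slide 1 with empty vector, at -3.60, -2.37 and -2.26 in shSix4 cells, against -4.03, -2.34 and -2.04 in shLuc cells. Their part in the members' levels was not tested, and slide, replicate number and, for slide 1, scan day cannot be told apart.

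The comparison of shSix4 with shLuc cells was then made with the slides kept apart. Within slide 1 the median difference, shSix4 minus shLuc, was 0.24 for the S-phase and 0.29 for the mitotic members with MyoD. In empty vector cells these medians were 0.02 and 0.09. On slides 2 and 3 with MyoD it was -0.88 and -0.65 for the S-phase members and -1.43 and -1.40 for the mitotic ones. With empty vector it was -1.11 and -0.66 for the S-phase and -1.94 and -1.75 for the mitotic members. Every mitotic member with a value was lower in shSix4 cells on slides 2 and 3 with either vector, 25 of 25 on slide 2 with MyoD and 26 of 26 in the other cases. On slide 1, 22 of 26 were higher with MyoD and 19 of 26 with empty vector. The S-phase members were also all lower on those slides, except E2f1 on slide 3 with empty vector. Of all genes, 52.6% and 49.5% were lower on these slides with MyoD, and in empty vector cells 63.3% and 39.8% were. With MyoD 2 S-phase and 4 mitotic members, and 19.2% of all genes, were lower on every slide, and with empty vector 10 S-phase and 7 mitotic members and 18.3% of all genes.

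**Figure D4:**
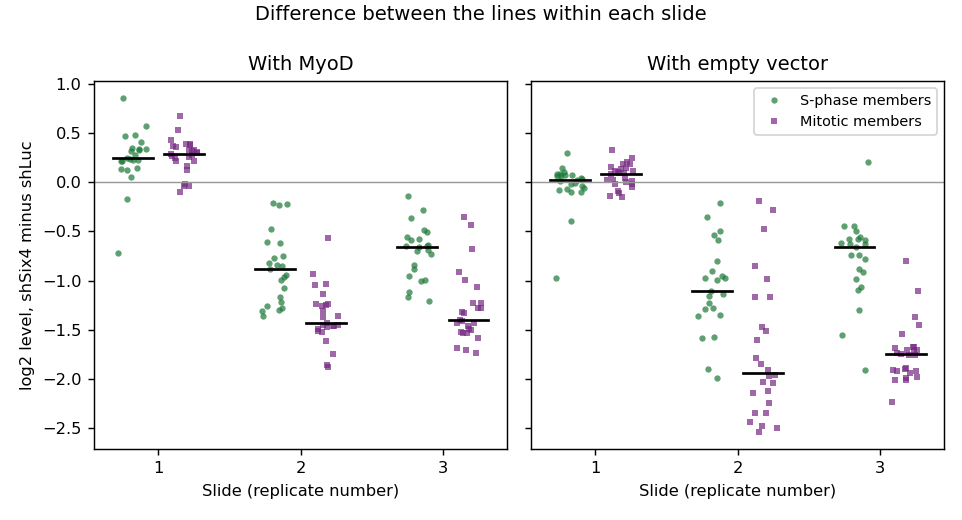
Log2 level of shSix4 minus shLuc within each slide for every member (points, S-phase circles, mitotic squares) with its median (bar), with MyoD on the left and with empty vector on the right. On slide 1 most mitotic members lie above 0, and on slides 2 and 3 all mitotic members lie below 0, with medians between -1.94 and -1.40.

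Over all 3 replicates no member passed the test in either vector. With MyoD, 0 of 49 members were called in limma, against 0.309% of all genes, and 3 of 49 had an unadjusted p under 0.05, against 7.72% of all genes. The median S-phase member differed by -0.42 and the median mitotic member by -0.81, against 0.02 over all genes, and the 49 fitted values were all negative. In the mitotic set the lowest p-values were those of Kif11, the spindle motor, at -0.98 ± 0.39 (SE, adjusted p = 0.516), Nusap1, a spindle protein, at -1.10 ± 0.50 (0.641) and Ccna2, cyclin A2, at -0.99 ± 0.52 (0.772). In the S-phase set they were those of E2f8 at -0.58 ± 0.25 (0.601), Rrm1 at -0.67 ± 0.48 (0.954) and Pole at -0.70 ± 0.60 (0.999). With empty vector, 0 of 49 members were called, against 0.0569% of all genes, and 8 of 49, all mitotic and lower, had an unadjusted p under 0.05, against 4.45% of all genes. The medians were -0.51 for the S-phase and -1.23 for the mitotic members, against -0.03 over all genes, and again all 49 values were negative. Kif11 stood at -1.27 ± 0.39 (adjusted p = 0.732), Ccna2 at -1.47 ± 0.52 (0.862) and Nusap1 at -1.33 ± 0.50 (0.957), and in the S-phase set Ccne2 at -1.63 ± 0.75, E2f8 at -0.44 ± 0.25 and Mcm4 at -0.48 ± 0.31 (0.999 each). With replicate number as a block 0 members were called with either vector, against 4.33% of all genes with MyoD and 0.634% with empty vector, and the lowest member was then Ccne2 with empty vector (adjusted p = 0.0619).

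Without slide 1, which was left out after its values had been seen, 2 arrays a group remained, or 1 for Bub1b in shLuc with MyoD. Because that choice followed the values, the p-values and counts without slide 1, here and below, describe the arrays that remained. They are not tests of a hypothesis set beforehand. With empty vector 28 of 49 members (57.1%) were called, against 2.22% of all genes, and all 28 fell in shSix4 cells. They were 22 of 26 mitotic and 6 of 23 S-phase members. Aurka fell by 2.15 ± 0.21 (SE), 4.43-fold, Ccna2 by 2.14 ± 0.22, 4.40-fold, and Plk1 by 2.01 ± 0.17, 4.03-fold (adjusted p = 0.00588 each). Cenpe, a centromere motor, had the largest change among them by the probe used, -2.23 ± 0.31 (adjusted p = 0.014). The S-phase members called were Tk1 at -1.73 ± 0.18, Pole, the leading-strand polymerase, at -1.22 ± 0.17, Rrm2 at -1.21 ± 0.20, Mcm5 at -1.07 ± 0.19, Ccne1 at -1.06 ± 0.21 and Ccne2, with adjusted p from 0.00588 to 0.0461. The measured level of Ccne2 was 3.87-fold lower in shSix4 cells (limma, adjusted p = 0.00692). Neither shSix4 array with empty vector left in this fit was well above background for Ccne2, so the size of its difference is uncertain. The 4 mitotic members not called were Mad2l1, Ttk, Kif23 and Top2a.

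With MyoD and without slide 1, 22 of 49 members (44.9%) were called, against 2.18% of all genes, and all 22 fell in shSix4 cells, 18 mitotic and 4 S-phase members. Ccnb1 fell by 1.73 ± 0.19, 3.32-fold (adjusted p = 0.0159), Nusap1 by 1.64 ± 0.17, 3.11-fold (0.0136), Ccnb2 by 1.63 ± 0.24 (0.0233) and Plk1 by 1.47 ± 0.17, 2.76-fold (0.0159). The S-phase members were Tk1 at -1.26 ± 0.18, Pole at -1.22 ± 0.17, Rrm1, the large subunit of ribonucleotide reductase, at -1.13 ± 0.17 and Ccne1 at -1.06 ± 0.21, with adjusted p from 0.0223 to 0.0477. E2f1 had -0.17 ± 0.26 with MyoD (adjusted p = 0.837), and the same values in empty vector cells (adjusted p = 0.808). The mitotic members not called with MyoD were Cdc20, Mad2l1, Ttk, Kif23, Cenpe, Top2a, Birc5 and Mybl2. Bub1b, counted as called, had only 1 array in shLuc with MyoD, so its call carries no weight. With MyoD the medians were -0.79 for the S-phase and -1.39 for the mitotic members, against -0.0047 over all genes. In empty vector cells they were -0.91 and -1.89, against -0.05 over all genes. The mitotic members that hold TTTGAA had a median of -1.38 with MyoD and -1.90 with empty vector (n = 13), and those that do not had -1.41 and -1.98 (n = 7). These fits hold no array of slide 1, where the medians were those given above.

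Genes outside the 50 that belong to the same steps were read beside the members. Of 35 other mitotic genes measured from a list of 36, 0 were called in limma over 3 replicates (lowest adjusted p = 0.61 with MyoD and 0.798 for empty vector), and without slide 1 27 fell with empty vector and 17 with MyoD, with none higher. Cenpf, a kinetochore protein, had -2.58 ± 0.26 with empty vector (adjusted p = 0.00588), and Ube2c, which serves the anaphase-promoting complex, had -2.04 ± 0.18 (0.00588). Of 30 other S-phase genes measured, 2 fell with MyoD, Mcm10 and Timeless, where 2.18% of all genes were called. With empty vector Mcm10, Exo1, Hells and Gmnn were among those that fell, where 2.22% of all genes were called. The non-member genes most like the mitotic members, by Pearson's r over 12 arrays between a gene's deviation from its group mean and the mean deviation of the 26, were Depdc1b, Melk, Ube2c, Cdca8, Kif18b, Gas2l3, Cep55, Pimreg, Nuf2 and Efcab11, with r from 0.984 to 0.993 among 12094 genes. Of the 10, 4 were in the list of other mitotic genes. The mean deviation of the S-phase members had r = 0.951 with that of the mitotic ones, over the same arrays and their shared slides. Depdc1b was at 1.65, -0.18 and -0.27 in shSix4 with MyoD, against 1.41, 1.25 and 1.15 in shLuc with MyoD, and at 2.04, -0.34 and -0.62 in shSix4 with empty vector, against 1.93, 1.57 and 1.31 in shLuc with empty vector.

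The last comparison was MyoD against empty vector within each line, where the S-phase members were a little higher with MyoD on slides 2 and 3. In shLuc cells 0 of 49 members were called, against 6.13% of all genes, and 1 had an unadjusted p under 0.05, against 18.5% of all genes. The medians were 0.21 for the S-phase and -0.05 for the mitotic members, against -0.12 over all genes. E2f8, which represses E2F targets late in S phase, had 0.76 ± 0.25 (adjusted p = 0.122) and was called with replicate number as a block (0.76 ± 0.24, adjusted p = 0.0454), the 1 member of 49 called there, against 23.7% of all genes. The next S-phase members were Mcm2 at 0.77 ± 0.52 (0.502) and Mcm7 at 0.59 ± 0.44 (0.546), and the mitotic ones of lowest p were Mad2l1 at 0.37 ± 0.58 (0.808), Cenpa at 0.29 ± 0.65 (0.879) and Cdc25c at 0.27 ± 0.75 (0.904). Without slide 1, 5 of 49 members were called, against 7.60% of all genes, all higher with MyoD and all of the S-phase set. They were E2f8 at 1.00 ± 0.19, Mcm2 at 0.95 ± 0.20, Cdc45 at 1.18 ± 0.26, Ccne1 at 0.95 ± 0.21 and Mcm7 at 0.92 ± 0.21, with adjusted p from 0.0209 to 0.0389. Within slides the S-phase median was -0.21, 0.38 and 0.49 on slides 1, 2 and 3, and the mitotic one -0.35, 0.04 and 0.17.

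In shSix4 cells 0 of 49 members were called for MyoD, against 3.02% of all genes, 1 had an unadjusted p under 0.05, against 9.53%, and with the block 0 were called, against 7.95%. The medians were 0.40 for the S-phase and 0.30 for the mitotic members, against -0.05 over all genes. E2f8 had 0.61 ± 0.25 (adjusted p = 0.429), Mcm2 0.80 ± 0.52 (0.803), Cdc6 0.93 ± 0.67 (0.862), Mybl2, a MYB factor of mitotic genes, 0.73 ± 0.54 (0.868), Bub1 0.60 ± 0.56 (0.949) and Cenpa 0.65 ± 0.65 (0.96). With the block the lowest adjusted p was that of Ccne1, 0.0505, at 0.95 ± 0.25. Without slide 1, 3 of 49 were called and higher with MyoD, against 3.49% of all genes. They were Mybl2 at 1.00 ± 0.18 (adjusted p = 0.0245), Mcm2 at 0.98 ± 0.20 (0.0422) and Ccne2, 2.95-fold higher with MyoD as measured (0.00724). Neither array with empty vector was well above background for Ccne2, so the size of its difference is uncertain. Within slides 1, 2 and 3 the S-phase median was 0.11, 0.53 and 0.62, and the mitotic one -0.09, 0.54 and 0.59. Cdkn1a, the Cdk inhibitor p21, rose with MyoD in both lines, by 0.92 ± 0.20 in shSix4 cells (adjusted p = 0.0286) and by 1.36 ± 0.20 in shLuc cells (0.00128). Without slide 1 the adjusted p was 0.0604 in shSix4 cells and 0.00541 in shLuc cells. The difference between the lines in the MyoD response (the interaction) called 0 of 49 members and 0% of all genes, and at an unadjusted p under 0.05 it held for 0 of 49 members, against 2.07% of all genes. The S-phase members of lowest p were Ccne2 at 0.81 ± 1.05, Tyms at 0.44 ± 0.85 and Cdt1 at 0.44 ± 0.92. The mitotic members of lowest p were Bub1 at 0.60 ± 0.80, Mybl2 at 0.57 ± 0.76 and Ccna2 at 0.48 ± 0.73. The S-phase and mitotic medians were 0.16 and 0.35, against 0.07 over all genes. These comparisons share arrays with those between the lines and are not independent of them.

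Of the measured members, 14 had 2 or 3 kept probes, and the brightest stood for the gene. The 16 other probes had the same sign as the one used in all cases for shSix4 against shLuc with MyoD and in all but 2 with empty vector, E2f1 and Kif11. Sizes differed more. With MyoD the other probe of Bub1 gave -0.06, against -0.69 for the one used, and that of Kif23 -0.12, against -0.72. The other probe of Top2a gave a larger difference, -1.67 against -0.73. Those of Cenpe gave -0.65 and -1.66 with MyoD, against -0.87 for the one used. With empty vector they gave -1.06 and -0.94, against -1.48. In the MyoD comparisons 6 differed in sign in shLuc cells and 3 in shSix4 cells. Their correlation with the probe used, over the 12 arrays, ran from -0.02, for Kif11, to 0.99, for Ccne1.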

How the data were processed

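The deposited scanner files of the 12 single-colour arrays hold spot intensities, background-corrected and detrended within each array by the scanner software. The file headers name Agilent's Feature Extraction 11.5.1.1, and the submitters' processing notes 10.5.1.1. A table of log2 values of 3891 probes, which the authors deposited as normalized signal under the word quantile with no further detail, served as an alternative. From the processed intensities, log2 values minus each array's 75th percentile were computed (R 4.3.3, limma 3.58.1). Control and outlier spots were left out, and spots of a probe were averaged. A probe was kept if 1 or more groups had it well above background in all 3 replicates (23998 probes), and the brightest named probe stood for its gene (12298 genes). Group means were fitted with 8 residual degrees of freedom, and p-values were adjusted over all genes by Benjamini-Hochberg with a threshold of 0.05. Same-numbered arrays of different groups, which share a slide per the file headers, deviated together (18 of 18 correlations between 0.278 and 0.819), so a fit with replicate number as a block was also made. Of 36 pairs with different numbers, 10 had a correlation above 0.1, up to 0.498. The block takes the slide step as the same in both lines. The alternatives were quantile scaling, normexp with the median spot and background signals in place of the mean signal, other probe filters, the mean of probes, outlier spots kept, and single arrays left out. Leaving out slide 1 was added after the data had been seen. The members and lists were chosen with earlier results of these data known. By rule, the members called, fixed example members, the 3 members of each set with the highest SD or, where none was called, the lowest p, and Six4, Myog and Cdkn1a were named. Myod1, Egr1, Ier2, Myc, Cdk2, Cdk6, Trp53inp1 and Bbc3 were chosen after their values were seen. The scripts were tested on simulated data. A description label that names another cell line than the other labels was not used. The result of 1 gene of the list of other S-phase genes is not reported here.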

Additional observations from a re-analysis of the deposited data

How the results depend on the processing

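The median differences between shSix4 and shLuc cells stayed negative in 23 of 23 other settings, between -0.90 and -0.17 (S-phase) and -1.39 and -0.54 (mitotic) with MyoD, and between -1.30 and -0.29 and -1.96 and -0.81 with empty vector. Leaving out an array of a group not compared could not change these medians, and no setting left out slides 2 and 3 together. Within slide 1 alone the medians were positive, 0.24 (S-phase) and 0.29 (mitotic) with MyoD. They were 0.02 and 0.09 there with empty vector. The median for MyoD in shLuc cells kept its sign in 22 of 23 settings for the S-phase and 17 for the mitotic members, and in shSix4 cells in 22 and 20. Counts are given below for MyoD in shLuc, MyoD in shSix4, shSix4 with MyoD and shSix4 with empty vector, in this sequence. With the replicate block, which pairs arrays of one slide, 2915, 978, 533 and 78 genes were called, against 754, 371, 38 and 7 without it, and 1 member for MyoD in shLuc. The block changed no other member's call. With slide 1 left out, 5, 3, 22 and 28 members were called, with 268 and 273 genes for the shSix4 comparisons, and replicate number called 1 gene and 0 members. With slide 1 left out and the replicate block, 7, 7, 29 and 32 members and 1477, 591, 612 and 445 genes were called, and 1 gene for the interaction. With both shSix4 replicates 1 left out, 1 member was called for MyoD in shLuc, 16 and 27 members and 169 and 228 genes for the shSix4 comparisons, and 16 members and 3573 genes for replicate number. There the test of line by replicate number, which then compares only replicates 2 and 3 between the lines, called 0 genes and 0 members. With normexp 86, 55, 0 and 0 genes were called, 2383 for replicate number, and 6485 genes and 33 members for line by replicate number. The strict filter (10940 genes) gave 439, 154, 6 and 4 genes and 2 for line by replicate number, no filter gave 2 and 2 for the shSix4 comparisons, and quantile scaling gave 4 for shSix4 with empty vector and 3 for line by replicate number. The authors' table, with 2637 genes and 15 members, gave 157, 51, 21 and 3 genes, 1 for the interaction, and 1511 genes and 7 members for replicate number. Leaving out single arrays gave 493 to 858 genes for MyoD in shLuc, 1 to 49 for shSix4 with MyoD, 1 to 8 for shSix4 with empty vector, 0 to 10 for line by replicate number, and 21 to 46 members for replicate number. Some settings held fewer genes or arrays, and the cause of these changes was not tested. The 3 arrays a group limit the precision.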

Other observations

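Of 6 p53 target genes measured beside the cell cycle lists, 3 were called for replicate number, where 56.6% of all genes were. With replicate number as a block, Trp53inp1, a p53-induced stress gene, fell in shSix4 cells relative to shLuc cells by limma, with a difference of -0.95 ± 0.16 (SE) with MyoD (adjusted p = 0.0135) and of -1.28 ± 0.16 for empty vector (0.0105). Without the block no p53 target passed in either comparison, and the lowest adjusted p was 0.219 with MyoD and 0.265 with empty vector. Bbc3, which encodes the apoptosis protein PUMA, was lower with MyoD than with empty vector in shLuc cells in the same blocked fit (-0.76 ± 0.14, adjusted p = 0.00481), which called 23.7% of all genes. Without the block its adjusted p was 0.0906. Myc was higher in shSix4 than in shLuc cells with MyoD in the blocked limma fit (0.65 ± 0.13, adjusted p = 0.0238), which called 4.33% of all genes, and its adjusted p was 0.703 without the block.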
